A study of Mus musculus with 6 samples.

Results

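The genes described here are 32 genes of the endoplasmic reticulum (ER) that sense unfolded protein, fold newly made secretory and membrane proteins, or remove those that fail to fold. They are a list of symbols whose rule uses no measured value, though it was drawn up with earlier results of these data known, out of 21730 mouse genes with at least 1 read. All 32 had reads, and 30 of them were among the 8684 genes with enough reads to be tested, the exceptions being Ern1 and Sdf2l1. By role they comprise 4 sensors and transcription factors, 8 genes of the Hsp70 and Hsp90 system, 3 of the lectin cycle, 6 of disulfide chemistry, 7 of ER-associated degradation and 4 of the translocon.

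The reads come from nanopore direct cDNA sequencing of poly-A selected RNA from the interscapular brown adipose tissue of male wild type C57BL/6N mice, 20 weeks old. Of these mice, 3 were held at 4 °C for 24 h in single cages (cold mice 4, 11 and 15) and 3 are labelled as controls (control mice 2, 9 and 14), with general housing at 22 to 24 °C. The labels do not say that control mice were caged singly, so cold and single housing cannot be told apart. Each mouse gave 1 library, read on 2 flow cells, and p-values measure the spread between these 3 mice a group.

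Secretory and membrane proteins enter the ER through the Sec61 channel, where Hsp70 and Hsp90 chaperones, sugar-binding lectin chaperones and protein disulfide isomerases help them fold, and misfolded chains are returned to the cytosol for degradation. When unfolded protein builds up, the membrane sensors IRE1 (gene Ern1), PERK (Eif2ak3) and ATF6 start the unfolded protein response: IRE1 splices the Xbp1 mRNA, PERK slows translation and favours Atf4, and a cleaved fragment of ATF6 enters the nucleus, where ATF6 and XBP1 raise chaperone genes through ER stress elements in their promoters. Brown adipocytes burn fat for heat through Ucp1 and make secreted and membrane proteins, such as lipoprotein lipase, that fold in the ER.

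In the cold, 8 of the 16 tested chaperones and folding enzymes had more abundant transcripts, as did the sensor Atf6. Among the 8 were those of calreticulin, calnexin, BiP and GRP94. None of the 7 tested genes of ER degradation and the 4 of the translocon was called higher. At the share of 9.75% higher over all tested genes, sets this small would hold few or no calls. Of the 30 members tested, 9 rose (Atf6, Hspa5, Hsp90b1, Dnajb9, Manf, Calr, Canx, Pdia3 and Creld2), 2 fell (Derl1 and Sec61b) and 19 passed the test in neither direction, by edgeR's quasi-likelihood test with Benjamini-Hochberg adjustment at 0.05. Over all 8684 genes tested, 847 genes (9.75%) were higher and 848 (9.77%) were lower, and with library totals alone in place of TMM scaling, which moved the median log2 fold change of all genes to 0.07, these counts were 1061 and 610. The median log2 fold change (cold against control) was 0.14 over the tested members and 0.0009 over all tested genes. By DESeq2, 6 members were called higher, among them Sdf2l1, where 4.33% of all genes were higher, and 1 lower, where 3.28% were lower. Among the tested members, 11 had every cold mouse above every control mouse and 3 had every cold mouse below, where 17.3% and 17.8% of all tested genes did.

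The 17 chaperones and folding enzymes (the Hsp70 and Hsp90 system, the lectin cycle and the disulfide enzymes) together held 832 to 886 CPM (counts scaled to a common library size after TMM normalisation) in the control mice and 1243 to 1296 in the cold mice. Their summed mean was 862 ± 27.4 CPM (SD, n = 3) in control and 1275 ± 28.5 (n = 3) in cold, a ratio of 1.48. Of the 16 tested, 8 rose and 0 fell, with a median log2 fold change of 0.36. The 7 degradation genes went from 366 ± 9.61 to 305 ± 21.9 CPM in sum, a ratio of 0.833. That drop was carried by Derl1: without it the sum was 166 ± 10.4 CPM in control and 164 ± 10.4 in cold. The difference between the roles was not tested. In bulk tissue, a change in the number of cells of a type and a change in RNA per cell cannot be told apart.

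**Figure D1:**
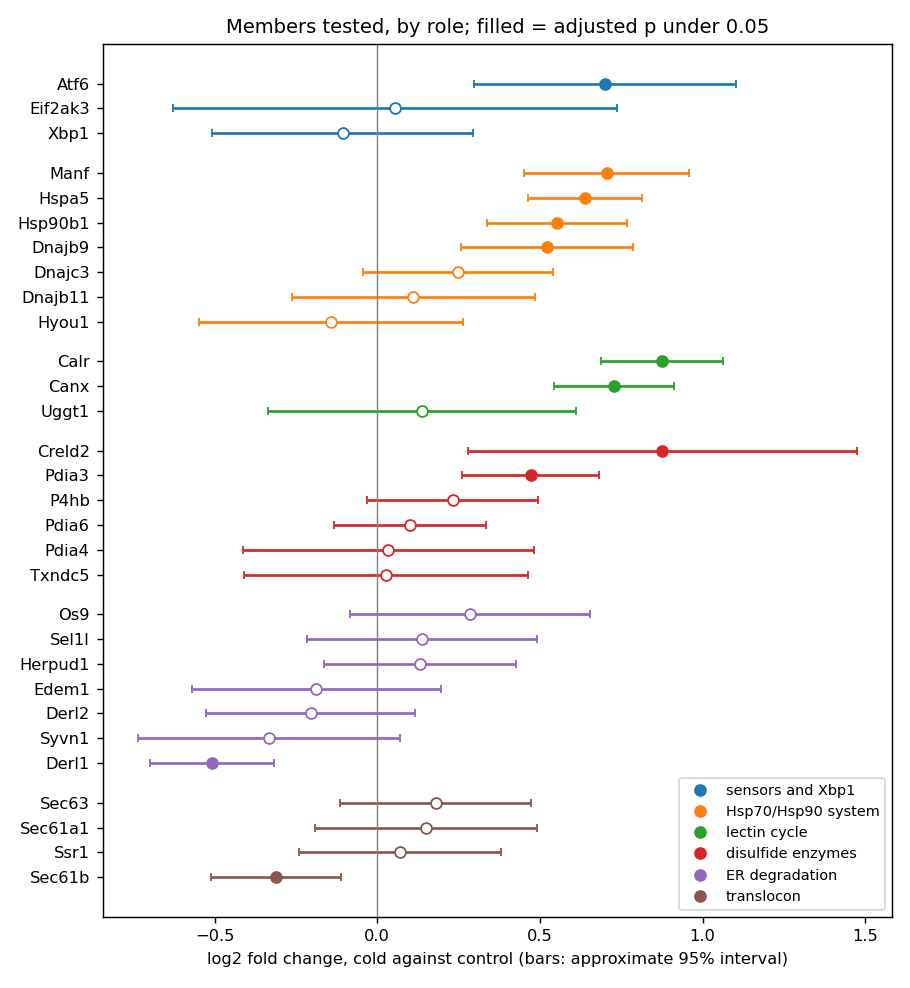
Log2 fold change, cold against control, of the 30 tested members in their role groups, with approximate 95% intervals computed from the SE. Filled points passed the test: 8 of the 9 that rose are chaperones or folding enzymes, and the lowest point is Derl1.

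ER stress elements are short promoter motifs bound by ATF6 with NF-Y, and they were looked for as exact letters in the RefSeq promoter windows (250 bases before to 50 after each start site, GRCm38.p6). A window was found for 27 members, and no window for Atf6, Hyou1, Manf, Derl1 and Sec61a1. The ER stress element (ERSE: CCAAT, then any 9 bases, then CCACG, on either strand) was in 8 of the 27 members (29.6%) and in 37 of all 27025 genes with a window (0.137%). The rule of choice used no promoter sequence, but the members include chaperone genes, a class already known to be raised through ER stress elements. The higher share among members is therefore a description of the chosen list and not an independent result. Capitals mark the CCAAT and CCACG letters, which read ATTGG and CGTGG where the motif is on the other strand. Each ERSE window is given 5′ to 3′ on its gene's strand.
Hspa5, chr2:34772020-34772048, plus strand: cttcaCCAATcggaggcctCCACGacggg
Calr, chr8:84847055-84847113, minus strand: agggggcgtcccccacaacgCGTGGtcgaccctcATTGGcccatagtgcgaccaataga
Hsp90b1, far copy, chr10:86705618-86705676, minus strand: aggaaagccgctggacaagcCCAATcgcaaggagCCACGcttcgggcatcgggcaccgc
Hsp90b1, near copy, chr10:86705513-86705571, minus strand: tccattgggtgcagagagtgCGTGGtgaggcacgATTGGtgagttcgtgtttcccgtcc
Canx, chr11:50325780-50325838, minus strand: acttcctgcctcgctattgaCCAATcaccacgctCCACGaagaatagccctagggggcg
Creld2, chr15:88819500-88819558, plus strand: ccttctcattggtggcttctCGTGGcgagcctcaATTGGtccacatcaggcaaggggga
Pdia6, chr12:17266471-17266529, plus strand: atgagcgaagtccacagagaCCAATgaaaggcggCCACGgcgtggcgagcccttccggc
Dnajc3, chr14:118937807-118937865, plus strand: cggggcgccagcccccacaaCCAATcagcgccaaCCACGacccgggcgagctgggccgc
Syvn1, chr19:6046512-6046570, plus strand: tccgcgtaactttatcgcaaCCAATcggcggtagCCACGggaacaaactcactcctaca

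Of the 8 members with this element, 5 rose in the cold (Hspa5, Calr, Hsp90b1, Canx and Creld2), 0 fell, and the median log2 fold change was 0.59, from -0.33 for Syvn1 to 0.88 for Creld2. Of the 19 members with a window but no ERSE, 17 were tested, 2 rose (Dnajb9 and Pdia3), 1 fell (Sec61b), and the median was 0.11. The untested ones were Ern1 and Sdf2l1, the latter with 4 reads in control and 42 in cold (DESeq2 adjusted p = 0.00681). Among members with the element, the Creld2 call held in 7 of 15 alternative analyses. The difference between these sets was not tested, and no share that rose is given for genes with the element outside the members. Whether the element goes with a rise in the cold was therefore not tested. The first bases of the elements lay between 212 and 44 bases before the start site. Hsp90b1 alone of the 27 had 2 copies. The element of Hspa5 lies on an annotated first exon of a longer Hspa5 transcript, upstream of the RefSeq start used here. The related ERSE-II (ATTGG, any 1 base, CCACG) was in Dnajb11 and Herpud1, 2 of 27 members (7.41%) against 0.0444% of all genes, and the XBP1-type element TGACGTGG was in Txndc5, 1 of 27 (3.70%) against 0.714%. None of Dnajb11, Herpud1 and Txndc5 passed the test. A match to these letters describes the sequence, and binding was not measured.

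**Figure D2:**
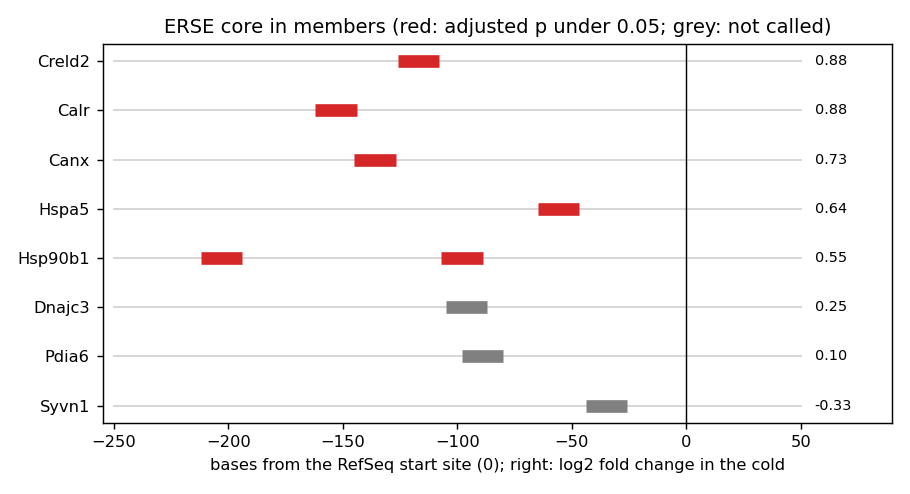
Position of the ERSE core, in bases from the RefSeq start site (0), in the 8 members that hold it, with each gene's log2 fold change at the right. Red marks the 5 genes that rose and grey the 3 that were not called (Dnajc3, Pdia6 and Syvn1), and Hsp90b1 shows 2 elements.

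Among the sensors, only Atf6 passed the test. Atf6 encodes the membrane-bound precursor of the ATF6 transcription factor (chromosome 1, 170704674 to 170867771, minus strand, GRCm38 as in all gene positions below). It stood at 13.9, 10.7 and 14.9 CPM in control mice 2, 9 and 14, and at 21.3, 20.5 and 22.7 CPM in cold mice 4, 11 and 15. Every cold mouse was above every control mouse, and the change was 1.62-fold (log2 fold change 0.70, SE 0.21, adjusted p = 0.019 by edgeR). The call was lost without control mouse 9 (adjusted p = 0.101), without cold mouse 15 (0.0529), with flow cell 2 alone (0.58), with skeletal muscle transcripts as a covariate (0.0849) and by DESeq2 (0.248), all with a positive change.

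Ern1, which encodes IRE1, had 11 reads in the control mice together and 18 in the cold mice, too few for the test. Its levels were 2.31, 1.53 and 1.86 CPM in control and 3.38, 3.01 and 2.91 in cold. The cold mice lay above the controls, but the read ratio of 1.73 had a 95% interval from 0.775 to 4.06 (exact binomial, counting error only), so a difference was not detectable at this depth. Eif2ak3, which encodes PERK, was at 6.94, 5.61 and 4.19 CPM in control and 5.31, 7.01 and 4.66 in cold. Those groups overlapped, with a log2 fold change of 0.05 (95% interval -0.63 to 0.74, adjusted p = 0.939 by edgeR). Xbp1 encodes the transcription factor whose mRNA IRE1 splices, and it was at 25.5, 27.6 and 18.1 CPM in control and 19.3, 19.0 and 27.9 in cold. It also overlapped between groups, with a log2 fold change of -0.11 (95% interval -0.51 to 0.30, adjusted p = 0.781). These values count all Xbp1 mRNA: the counts per annotated transcript do not separate the IRE1-spliced form, and so do not report IRE1 activity.

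Of the 7 tested genes of the Hsp70 and Hsp90 system 4 rose, and the median log2 fold change was 0.52. Hspa5 (chromosome 2, 34771970 to 34777547, plus strand) encodes BiP, the ER Hsp70 that also holds the sensors inactive. It was at 151.6, 136.3 and 131.2 CPM in control and 224.2, 212.9 and 213.7 in cold. The lowest cold mouse was well above the highest control mouse. The means were 139.7 ± 10.6 and 216.9 ± 6.29 CPM (SD, n = 3 each), a 1.56-fold rise (log2 fold change 0.64, SE 0.09, adjusted p = 2.11e-05 by edgeR). Hsp90b1 (chromosome 10, 86690209 to 86705509, minus strand) encodes GRP94, the ER member of the Hsp90 family. Its control values were 84.5, 72.5 and 87.5 CPM and its cold values 119.8, 107.2 and 132.2. These did not overlap, and the change was 1.47-fold (log2 fold change 0.55, SE 0.11, adjusted p = 0.000875). Hsp90b1 shares 415 exonic bases with 1810014B01Rik on the opposite strand, to which 221 reads were assigned against 1165 for Hsp90b1, and whether the counting used strand is not given in the sources used here. 1810014B01Rik had 16.8 ± 4.16 CPM in control and 21.5 ± 3.09 in cold (adjusted p = 0.258).

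Dnajb9 encodes ERdj4, a J-domain co-chaperone of BiP that also acts on IRE1. It was at 32.4, 33.7 and 40.0 CPM in control and 49.3, 52.1 and 51.8 in cold. The groups were apart, and the change was 1.44-fold (log2 fold change 0.52, SE 0.14, adjusted p = 0.00833 by edgeR). Its call was lost with flow cell 2 alone (adjusted p = 0.327), with the muscle covariate (0.0884), without control mouse 2 and cold mouse 15 together (0.0826) and by DESeq2 (0.138). Manf encodes a small secreted ER protein that binds BiP and is released under ER stress. It was at 52.7, 42.4 and 41.0 CPM in control and 65.7, 76.1 and 79.2 in cold. All cold mice were higher, by 1.63-fold in the fit (log2 fold change 0.71, SE 0.13, adjusted p = 0.000405). Manf overlaps Dcaf1 on the opposite strand over 146 exonic bases and Rbm15b on its own strand over 14, with 97 and 67 reads assigned to them against 686.

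Sdf2l1, a partner of the BiP and J-protein complexes, had the largest ratio of any member but very few reads. It had 0, 2 and 2 reads in control mice 2, 9 and 14 and 20, 9 and 13 in cold mice 4, 11 and 15. The totals of 4 and 42 reads gave a ratio of 11.1 after scaling, with a 95% interval from 4.03 to 42.7 (exact binomial, counting error only). The gene did not pass the filter on low counts, and when it entered the fit with no filter, its adjusted p was 2.49e-07 by edgeR. By DESeq2 the adjusted p was 0.00681. On flow cell 1 the reads were 0, 1 and 1 against 18, 7 and 9, and on flow cell 2 they were 0, 1 and 1 against 2, 2 and 4.

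The other 3 tested genes of this system passed in neither direction. The log2 fold change was 0.25 (95% interval -0.04 to 0.54) for Dnajc3, which encodes the p58IPK co-chaperone, and 0.11 (-0.26 to 0.49) for Dnajb11, which encodes ERdj3. Hyou1, the large Hsp70-related exchange factor of BiP, was at 21.1 ± 3.31 CPM in control and 18.8 ± 4.32 in cold (n = 3 each), with a log2 fold change of -0.14 (-0.55 to 0.26). So BiP transcripts rose without a detected rise of Hyou1, and the upper bound for Hyou1 lies below the lower bound of 0.46 for Hspa5. The bounds overlapped with flow cell 1 alone, without control mouse 2 and cold mouse 15 together, and by DESeq2. They also overlapped with the muscle covariate, where Hyou1 was at 0.15 (SE 0.23) and Hspa5 at 0.71 (SE 0.11).

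The lectin cycle had the largest ratio of summed levels among the 6 role groups. Its 3 members held 277.7 ± 19.8 CPM in control and 475.9 ± 7.37 in cold (SD, n = 3 each), a ratio of 1.71. Calr (chromosome 8, 84841850 to 84846934, minus strand) encodes calreticulin, the soluble lectin chaperone and calcium store of the ER. It was at 135.4, 118.9 and 125.6 CPM in control and 235.8, 206.9 and 254.5 in cold. The cold values stood far above the controls (log2 fold change 0.88, SE 0.10, adjusted p = 8.87e-07 by edgeR). Canx (chromosome 11, 50293961 to 50325673, minus strand) encodes calnexin, its membrane-bound relative. It was at 144.7, 127.1 and 147.0 CPM in control and 224.2, 253.0 and 216.0 in cold. These groups too were apart (log2 fold change 0.73, SE 0.09, adjusted p = 7.08e-06). Uggt1, which encodes the glucosyltransferase that sends unfolded glycoproteins back to both lectins, was at 11.4 ± 2.19 and 12.5 ± 1.29 CPM and overlapped between groups (log2 fold change 0.14, 95% interval -0.34 to 0.61).

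**Figure D3:**
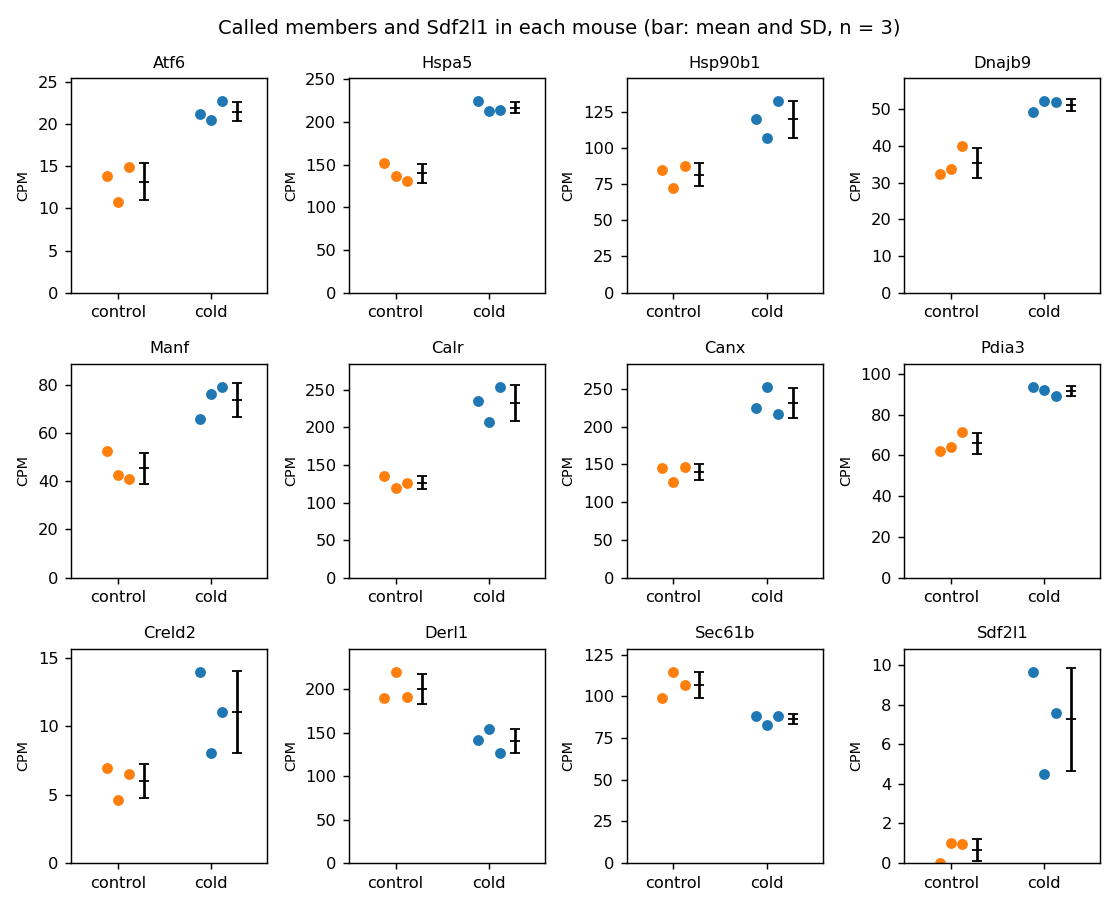
CPM in each mouse for the 11 called members and Sdf2l1, with the mean and SD (n = 3) beside the points; each axis starts at 0. In all 12 panels the control and cold mice do not overlap, and Derl1 and Sec61b are the panels in which cold is lower.

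The disulfide enzymes changed unevenly, with 2 of 6 higher and a median log2 fold change of 0.17. Pdia3 (chromosome 2, 121413775 to 121438687, plus strand) encodes ERp57, the isomerase that works with calreticulin and calnexin. It was at 61.9, 64.3 and 71.7 CPM in control and 93.7, 92.2 and 89.1 in cold. The groups did not overlap, and the rise was 1.39-fold (log2 fold change 0.47, SE 0.11, adjusted p = 0.00306 by edgeR). It lost the call with flow cell 2 alone (adjusted p = 0.161) and by DESeq2 (0.0519). Creld2, a secreted ER stress protein with isomerase-like sequence, was at 6.94, 4.59 and 6.51 CPM in control and 14.0, 8.02 and 11.1 in cold. All cold mice were above all controls (log2 fold change 0.88, SE 0.30, adjusted p = 0.0469). The call was kept without cold mouse 11 (adjusted p = 0.0272). It was lost without any of control mice 2 (adjusted p = 0.0710), 9 (0.174) and 14 (0.0899) and cold mice 4 (0.234) and 15 (0.0889), and by DESeq2 (0.382).

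The general isomerases did not pass. P4hb, which encodes the founding protein disulfide isomerase, was at 42.8 ± 5.05 CPM in control and 50.7 ± 3.97 in cold (log2 fold change 0.23, 95% interval -0.03 to 0.49). Pdia6 was at 51.2 ± 0.895 and 54.8 ± 2.55 CPM (0.10, -0.13 to 0.34). In both genes the cold mice lay above the control mice by small steps. Pdia4 had a log2 fold change of 0.03 (-0.41 to 0.48) and Txndc5 of 0.03 (-0.41 to 0.46). The counts of Txndc5 are uncertain because 224 of its exonic bases also belong to Bmp6, on the other strand, with 154 reads assigned to Bmp6 and 240 to Txndc5.

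Of the 7 genes of ER-associated degradation 0 rose and 1 fell, and the median log2 fold change was -0.19. Derl1 (chromosome 15, 57869502 to 57892448, minus strand) encodes Derlin-1, a membrane protein of the retrotranslocation machinery. It was at 190.4, 220.5 and 191.2 CPM in control and 141.6, 154.3 and 126.9 in cold. Every cold mouse was below every control mouse, and the level was 1.42-fold lower (log2 fold change -0.51, SE 0.10, adjusted p = 0.000596 by edgeR). Its relative Derl2 was at 35.6 ± 6.90 and 31.1 ± 3.05 CPM with overlapping groups (log2 fold change -0.20, 95% interval -0.52 to 0.12).

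The other degradation genes passed in neither direction. Syvn1 encodes HRD1, the ubiquitin ligase of the pathway. It was at 20.2, 19.9 and 20.0 CPM in control and 13.0, 19.5 and 15.1 in cold. Cold mouse 11 came close to the controls, and the log2 fold change of -0.33 had a 95% interval from -0.73 to 0.07 (adjusted p = 0.290). Its exons overlap those of Mrpl49 on the other strand over 91 bases, with 381 reads assigned to Mrpl49 and 209 to Syvn1. Sel1l, the partner of HRD1, changed by 0.14 (-0.21 to 0.49), and Os9, the lectin that brings glycoproteins to it, by 0.28 (-0.08 to 0.65). Herpud1, a stress-responsive scaffold of the same complex, changed by 0.13 (-0.16 to 0.43), and Edem1, which trims mannose on misfolded glycoproteins, by -0.19 (-0.57 to 0.20).

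The translocon genes moved little. Sec61b, the beta subunit of the Sec61 channel, was at 98.9, 114.8 and 107.0 CPM in control and 88.4, 82.7 and 87.9 in cold. The groups did not overlap, and the level was 1.24-fold lower (log2 fold change -0.31, SE 0.10, adjusted p = 0.0345 by edgeR). The call was held in 4 of 16 alternatives: it was lost without any of control mice 9 (adjusted p = 0.128) and 14 (0.0817) and cold mice 4 (0.0726), 11 (0.119) and 15 (0.0627), and with library totals alone (0.119). The pore subunit Sec61a1 had a log2 fold change of 0.15 (95% interval -0.19 to 0.49), the BiP-recruiting Sec63 one of 0.18 (-0.11 to 0.47) and Ssr1, of the translocon-associated complex, one of 0.07 (-0.24 to 0.38).

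**Figure D4:**
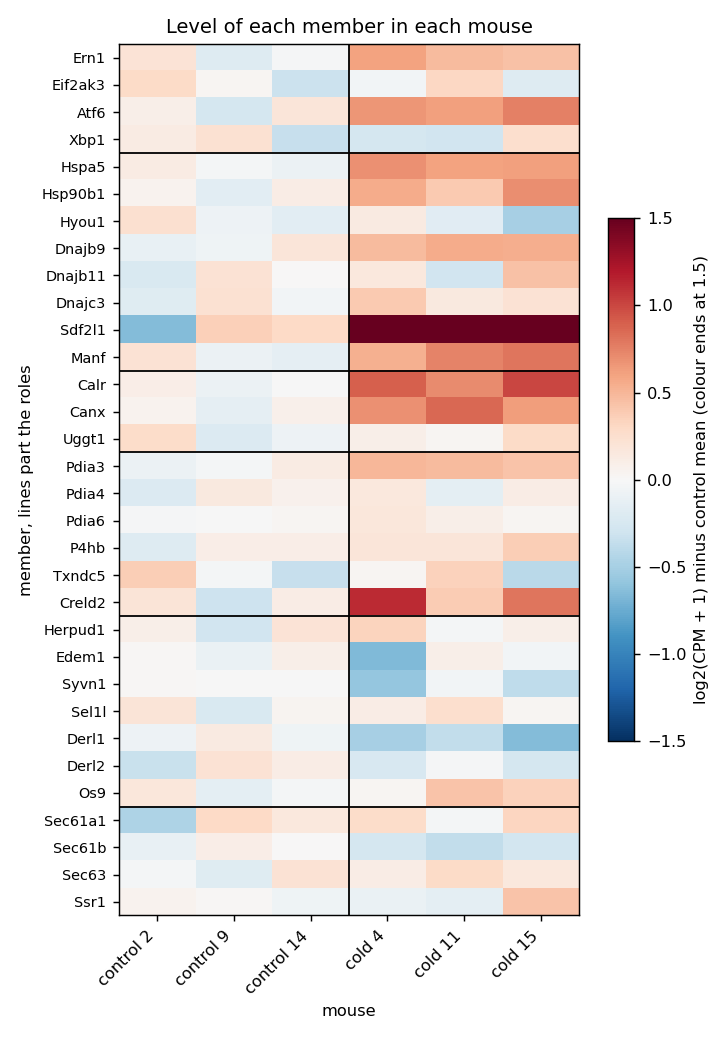
Log2(CPM + 1) of all 32 members in each mouse minus the mean of the control mice, rows in role order with lines between roles; red is above the control mean and blue below. Calr, Canx, Hspa5 and Sdf2l1 are red in all 3 cold mice, Derl1 and Sec61b are blue in all 3, and the colour scale ends at 1.5.

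The same libraries were read on 2 flow cells, which repeat the sequencing but not the mice. Of the members, 26 could be tested on both flow cells, and 23 of these had the same sign on both, the exceptions being Xbp1, Txndc5 and Edem1. All 10 called members that could be tested on both kept their sign. They were called on the sum of these same flow cells, which favours the same sign on each. No share of genes with the same sign is given over all genes. Calr had a log2 fold change of 0.69 on flow cell 1 and 1.19 on flow cell 2, and Canx 0.78 and 0.61. For Hspa5 the values were 0.56 and 0.74, and for Derl1 -0.56 and -0.45. Hspa5, Hsp90b1, Manf, Calr, Canx and Derl1 were called in all 16 alternative analyses, which include each flow cell alone, DESeq2 and leaving out each mouse.

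**Figure D5:**
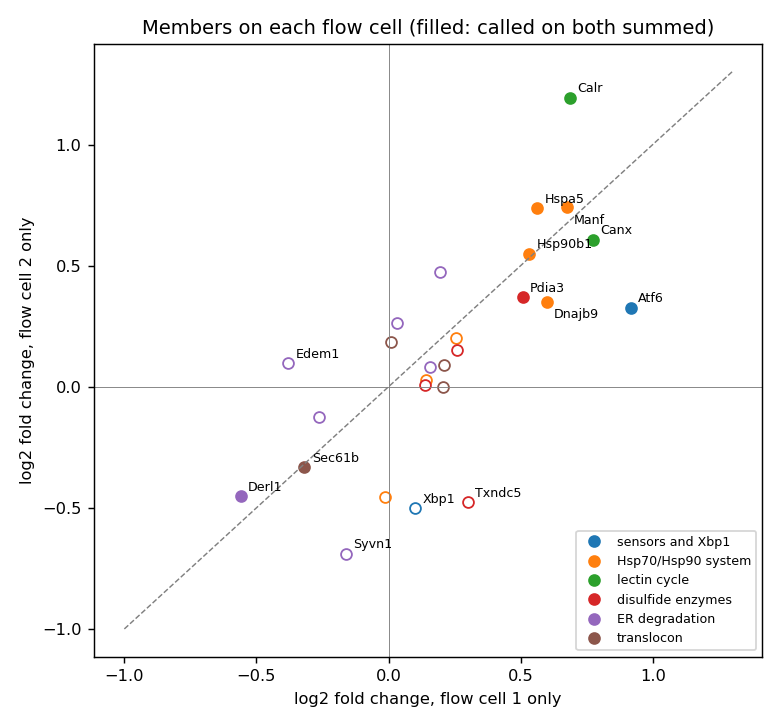
Log2 fold change of the 26 members tested on both flow cells, flow cell 1 on the x axis and flow cell 2 on the y axis, with the line of equal values dashed; filled points were called with both flow cells summed. The called members lie in the upper right or lower left, and Xbp1, Txndc5 and Edem1 have opposite signs.

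Long reads assign counts to annotated transcripts, so the same changes were followed within genes. Members had reads on 108 transcripts, of which 39 were tested, 11 were higher and 2 lower, in 10 members. Over all tested transcripts 16.3% were called in either direction. The higher ones were Atf6-201, Hspa5-201 and Hspa5-202, Hsp90b1-201 and Hsp90b1-202, Dnajb9-201, Manf-202, Calr-201, Canx-201 and Canx-205, and Pdia3-201. The lower ones were Derl1-201 and Sec61b-201. Of the 10 members with at least 2 tested transcripts, 0 changed transcript usage by edgeR's test of differential usage, and 0 had an unadjusted p under 0.05, the lowest being 0.504 for Os9. By that test 0.195% of the genes tested were called.

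In Hspa5, Canx and Hsp90b1, both main transcripts rose. Hspa5-202 held 50.3% ± 1.63 of Hspa5 reads in control and 51.6% ± 3.39 in cold (SD, n = 3 each), and the longer Hspa5-201 held 49.1% ± 1.75 and 48.0% ± 3.19. Canx-201 held 59.4% ± 3.05 and 61.5% ± 3.97 of Canx reads. Hsp90b1-202 is annotated as an intron-retaining transcript and held 35.2% ± 7.46 and 35.7% ± 3.32 of Hsp90b1 reads. It rose with the coding form, with log2 fold changes of 0.57 (SE 0.17, adjusted p = 0.0221) for Hsp90b1-202 and 0.52 (SE 0.13, adjusted p = 0.00599) for Hsp90b1-201. In other members, transcripts not annotated as protein-coding took much of the count: 68.8% of Edem1 reads, 37.3% of Syvn1 reads, 25.4% of Uggt1 reads and 23.6% of Sec63 reads. In Edem1, 193 of these 194 reads were on Edem1-205, which is annotated as a nonsense-mediated decay transcript.

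Beyond the members, 118 further genes of ER quality control in 6 lists were followed, of which 108 were tested, 15 rose and 3 fell. These counts were 9 and 1 without cold mouse 4, 8 and 1 without control mouse 9, and 4 and 1 by DESeq2. The shares of 15 of 108 higher (13.9%) and 3 lower stand beside 9.75% and 9.77% of all genes tested, and by list the share higher ran from 4.35% (other degradation genes) to 20.0% (other folding genes). In the PERK and ATF4 arm 1 of 8 rose: Atf4, the transcription factor that PERK signalling favours, went from 76.4 ± 9.31 to 102.1 ± 13.4 CPM (log2 fold change 0.42, adjusted p = 0.0143), a call lost without control mouse 9 (0.0539) or 14 (0.0953), without cold mouse 15 (0.0853) and by DESeq2 (0.118). The Atf4 call was also lost with flow cell 1 alone and with the muscle covariate. Among 9 partners of ATF6 and IRE1, 1 rose: Wfs1, an ER membrane protein that restrains ATF6, went from 5.50 ± 1.02 to 12.6 ± 3.03 CPM (log2 fold change 1.18, adjusted p = 0.00665), a call lost with the muscle covariate (0.105) and by DESeq2 (0.118). The Wfs1 call was also lost without control mouse 2 and cold mouse 15 together. Of 30 other folding genes 6 rose and 2 fell. Ganab, the glucosidase subunit that readies glycans for the lectins, rose by 0.66 on the log2 scale (adjusted p = 0.000368), and Serpinh1, the collagen chaperone, by 0.58 (0.000849). Fkbp7 and Creld1 fell by 0.68 and 0.60 on that scale (adjusted p = 0.0281 and 0.0416). The Fkbp7 call held in 9 of 16 alternatives and that of Creld1 in 7 of 16. The Fkbp7 call was lost without control mouse 9 (0.136) and without cold mouse 4 (0.148) or 15 (0.0881). That of Creld1 was lost without control mouse 2 (0.209) or 9 (0.0626) and without cold mouse 4 (0.102) or 11 (0.200). Both were also lost by DESeq2, with flow cell 2 alone, with library totals alone and without control mouse 2 and cold mouse 15 together. The Creld1 call was also lost with the muscle covariate.

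Of 32 translocation and glycosylation genes 5 rose and 1 fell. Magt1, a subunit of the oligosaccharyltransferase that adds N-glycans, had the clearest change, from 30.7, 37.8 and 33.5 CPM to 78.8, 72.6 and 80.3. The cold mice were all above the controls, by 2.26-fold (log2 fold change 1.18, adjusted p = 6.00e-07 by edgeR). Rpn1, of the same enzyme, rose by 0.71 on the log2 scale (adjusted p = 0.000646), while Tmem258, another of its subunits, fell by 0.51 (0.000805). Both calls were lost with flow cell 2 alone (adjusted p = 0.0641 for Rpn1 and 0.132 for Tmem258 by edgeR). Srp72, of the signal recognition particle, rose by 0.46 (0.0249), a call lost without control mouse 9 (0.0811) or 14 (0.0715), without cold mouse 4 (0.122) and by DESeq2 (0.289). The Srp72 call was also lost with flow cell 1 alone and without control mouse 2 and cold mouse 15 together. Of 23 other degradation genes 1 rose, Ngly1, the cytosolic deglycosylating enzyme (0.57, adjusted p = 0.00628, DESeq2 0.113), and of 6 ER-phagy genes 1 rose, Tex264, an ER-phagy receptor (0.45, adjusted p = 0.00875, lost without control mouse 9 at 0.0677 and by DESeq2 at 0.104). The calls of Ngly1 and Tex264 were also lost with flow cell 2 alone.

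The libraries held 1657985 to 2238056 reads, so 3 reads correspond to 1.34 to 1.81 CPM. Labels give the tissue as interscapular brown fat, though the extraction text names eWAT at homogenisation. Summed brown adipocyte markers were high in every library, with Ucp1 at 9700 CPM or more. Levels differed widely between these markers: Ppargc1a, Dio2 and Prdm16 had control means of 25.6, 34.5 and 23.4 CPM. Of the 10 brown adipocyte markers 5 rose and 2 fell. Summed skeletal muscle markers spanned 73.5 to 499 CPM in control and 209 to 2682 in cold, with cold mouse 15 highest and 0 of 9 called. The ratio of their summed means, cold over control, was 4.5. All 9 tested muscle markers had a positive log2 fold change, from 1.51 to 2.89. With their level as a covariate, the log2 fold change was 0.88 for Calr, 0.71 for Hspa5 and -0.49 for Derl1, and 8 of the 11 called members kept their call. Atf6, Dnajb9 and Sec61b (adjusted p = 0.0880) did not, at log2 fold changes of 0.67, 0.44 and -0.34, against 0.70, 0.52 and -0.31 without the covariate. Plasma and B cell markers, which come from cells rich in the folding machinery, summed to 13.9 to 20.9 CPM in control and 14.0 to 15.1 in cold, with 8 of the 9 listed having reads, Ighg2b at 0 in 5 libraries and Jchain at 0 in 3. Fibroblast markers were at 276 to 330 and 235 to 306 CPM (0 higher and 3 lower of 6), endothelial markers at 262 to 266 and 307 to 327 (1 higher and 1 lower of 7), macrophage markers at 61.0 to 83.7 and 81.2 to 113 (0 of 4 called) and erythroid markers at 1574 to 2915 and 1910 to 2843 (0 of 5 called). The muscle covariate leaned with the groups: its mean log2 CPM was 2.59, 4.41 and 5.04 in control mice 2, 9 and 14. In cold mice 4, 11 and 15 it was 3.98, 6.14 and 7.48. With 6 mice, that fit therefore cannot settle what muscle adds to a change. The part of these cells in the members' changes was not tested.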

How the data were processed

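RNA of 6 mice was sequenced as direct cDNA from 100 ng of poly-A RNA, per the labels' protocols. The authors deposited read counts per transcript for each flow cell, made with minimap2 and the GRCm38 build per the submitters' processing notes; for the annotation release, reads that fit several transcripts, and strand, nothing was stated in the sources used here. Transcript IDs were matched to GENCODE M21, which left 9857 of 11789059 reads (0.0836%) unmatched and out of all totals, and counts were summed over both flow cells and over each gene.

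Groups were compared with edgeR 4.0.16 in R 4.3.3 (TMM, filterByExpr, robust quasi-likelihood test, Benjamini-Hochberg adjustment over all genes tested, called at 0.05). No covariate was used. Transcripts were tested likewise, and transcript usage with diffSpliceDGE where a gene had 2 or more of them. CPM use the TMM-scaled library. DESeq2 1.42.0, other scalings and filters, each flow cell, a skeletal muscle covariate and leaving out mice were the alternatives. Overlapping genes were found from the annotation, and near-identical sequence with minimap2 2.31-r1302. Scripts were checked on simulated data.

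The members and the gene lists were chosen with earlier results of these data known, so their counts are descriptions and no list was tested. All members are accounted for; every mouse is given for called members and the sensors, and up to 4 called genes with the largest change are named in each related list. Promoter sequences are from RefSeq (GRCm38.p6); protein sequences were not used here. Counting intervals cover counting error only.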

Additional observations from a re-analysis of the deposited data

How the results depend on the processing

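No paired analysis was possible because the mouse numbers differ between the groups. Causes were not tested. Genes called higher numbered 847 in the main fit, 467 by DESeq2 and 429 on flow cell 2 alone. Genes called lower numbered 848 in the main fit, 353 by DESeq2 and 408 on flow cell 2. They numbered 539 with the muscle covariate and 506 without control 2 and cold 15 together. The genes tested numbered 8684 in the main fit, 10776 by DESeq2 and 5348 on flow cell 2. These are counts of calls, not of shared genes. Members called higher went from 9 to 5 on flow cell 2 and ranged from 7 to 10 over leaving out each mouse. The counts without control mouse 2, 9 or 14 or cold mouse 11 include Sdf2l1, which passed the filter there. Members called lower were 1 in place of 2 by DESeq2, on each flow cell, with library totals, without the filter, with the muscle covariate and without both mice, and 1 to 2 over leaving out each mouse. Related genes higher went from 15 to 4 by DESeq2, 9 on flow cell 1, 6 on flow cell 2, 9 with the muscle covariate and 8 without both mice (8 to 14 leaving out each mouse, 9 without cold 4 and 8 without control 9); lower went from 3 to 1 by DESeq2, with library totals and without both mice (1 to 4 leaving out each mouse, 1 without cold 4 or control 9). Markers lower went from 6 to 3 by DESeq2 and on flow cell 2 (3 to 5 leaving out each mouse, 3 without cold 4 or control 9). Transcripts called went from 13 to 7 on flow cell 2. Of 175 values for called members under the alternatives, 143 kept direction and call, 32 lost the call and 0 reversed; of 300 for members not called, 27 changed sign. Outside leaving out 1 mouse, those were Eif2ak3 (-0.04 on coding transcripts), Xbp1 (0.10 on flow cell 1), Uggt1 (-0.23 on flow cell 1), Txndc5 and Edem1 (-0.48 and 0.10 on flow cell 2), with the muscle covariate Hyou1 (0.15), Dnajb11 (-0.03), Pdia4 (-0.00082) and Ssr1 (-0.08), and without both mice Hyou1 (0.12), Dnajb11 (-0.16), Pdia4 (-0.09), Sec61a1 (-0.09) and Ssr1 (-0.10). Leaving out each mouse in turn, the sign also changed within -0.13 to 0.23 for Eif2ak3, -0.29 to 0.02 for Xbp1, -0.33 to 0.00027 for Hyou1, -0.06 to 0.29 for Dnajb11, -0.06 to 0.13 for Pdia4, -0.17 to 0.23 for Txndc5, -0.01 to 0.24 for Herpud1, -0.35 to 0.03 for Edem1, -0.03 to 0.29 for Sec61a1 and -0.12 to 0.18 for Ssr1.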

Other observations

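The collagen chaperone Serpinh1 rose while the 3 collagen genes of the fibroblast marker list fell; both were picked out after their values were seen. Serpinh1 binds procollagen in the ER and stood at 116.9, 160.8 and 130.3 CPM in control mice 2, 9 and 14 and at 214.0, 179.3 and 216.6 in cold mice 4, 11 and 15, with every cold mouse above every control mouse. Col1a1 had a log2 fold change of -0.71 (SE 0.19, adjusted p = 0.0128 by edgeR), Col1a2 of -0.55 (SE 0.17, adjusted p = 0.0221) and Col3a1 of -0.72 (SE 0.13, adjusted p = 0.000282), against 0.58 (SE 0.11) for Serpinh1. The other tested genes of that marker list passed in neither direction: the log2 fold change was 0.34 for Dcn (adjusted p = 0.0746), 0.45 for Dpt (0.191) and -0.70 for Lum (0.0998). Pdgfra and Fbn1 had too few reads for the test. In the PERK and ATF4 list, whose median log2 fold change was 0.02 over 8 tested genes, some genes that did not pass the test still had groups that did not overlap, in both directions. Ddit3, the stress factor CHOP, had every cold mouse higher (log2 fold change 0.45, adjusted p = 0.107 by edgeR), as did Ppp1r15a (0.545, adjusted p = 0.141). Trib3 also had every cold mouse higher, with too few reads for the test. Asns, the asparagine synthetase, had every cold mouse lower (-0.36, adjusted p = 0.0672), as did Nupr1 (-0.40, adjusted p = 0.244). With the called Atf4, 3 of the 8 tested genes had every cold mouse higher and 2 every cold mouse lower. Over all tested genes these shares were 17.3% and 17.8%.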
